A study of Mus musculus with 6 samples.

Results

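The genes examined are 10 components of the prostaglandin and lipoxygenase pathway: *Pla2g4a*, *Ptgs1*, *Ptgs2*, *Ptges*, *Ptgis*, *Alox5*, *Alox12*, *Hpgd*, *Ptger2* and *Ptger4*. They were taken by gene name from a table of 43346 genes, in which each name occurred once, and all 10 were among the 17589 genes that passed a filter on low counts. The RNA-seq study compared 3 control with 3 senescent libraries of mouse adult fibroblasts (MAFs), primary cells grown from ear tissue of C57BL6/J mice (adult females), kept at 3% oxygen and used between passages 3 and 8. Senescent MAFs received 20 Gy of X-rays, a dose used here to induce senescence, and were cultured for a further 21 days, whereas control MAFs were sham irradiated. Cells of both groups were given 100 nM dexamethasone, a synthetic glucocorticoid used to set cellular clocks to one phase, for 2 h and were collected 12 h later, so no library here shows the pathway without the steroid. Nothing in the labels says whether the 3 libraries of a group came from separate mice or cultures, so the p-values measure only the spread between these libraries.

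Prostaglandins and leukotrienes are short-lived lipid signals made from arachidonic acid. Phospholipases A2 free the arachidonic acid from membranes. Cyclooxygenases then turn it into prostaglandin H2, from which terminal synthases make PGE2, prostacyclin (PGI2), PGD2, PGF2α or thromboxane, while lipoxygenases lead to leukotrienes and hydroxy fatty acids. The products act on G protein-coupled receptors of the same or nearby cells and are then taken up and oxidized. In fibroblasts, the inducible cyclooxygenase encoded by *Ptgs2* is known for its rapid response to cytokines and stress, and PGE2 is a component of the secretions of many senescent cells.

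The promoters of the 2 cyclooxygenase genes are shown because the paralogs differed widely in their response. The windows run from 250 bases before to 50 bases after the RefSeq start (build GRCm38.p6, the sequence of mm10) and are written 5′ to 3′ on the coding strand, in lower case with matches to the motifs searched in capitals. The *Ptgs2* window lies at chr1:150099781-150100080 (+) and the *Ptgs1* window at chr2:36230176-36230475 (+).
Ptgs2: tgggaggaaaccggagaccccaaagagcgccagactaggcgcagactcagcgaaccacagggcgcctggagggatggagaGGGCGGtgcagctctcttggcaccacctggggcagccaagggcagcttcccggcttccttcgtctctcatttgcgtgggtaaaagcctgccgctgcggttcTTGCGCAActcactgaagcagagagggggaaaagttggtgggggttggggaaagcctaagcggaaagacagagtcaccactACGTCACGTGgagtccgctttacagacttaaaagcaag
Ptgs1: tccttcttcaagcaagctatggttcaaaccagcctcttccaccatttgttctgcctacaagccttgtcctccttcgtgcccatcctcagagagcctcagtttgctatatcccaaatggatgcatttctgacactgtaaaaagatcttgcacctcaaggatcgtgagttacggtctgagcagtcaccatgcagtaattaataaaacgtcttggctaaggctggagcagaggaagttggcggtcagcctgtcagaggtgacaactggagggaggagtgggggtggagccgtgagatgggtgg
The following motifs were searched on both strands: the E-box CACGTG, the AP-1 element TGACTCA, the CRE core ACGTCA, the palindromic C/EBP element TTGCGCAA, the TATA element TATAAA and the GC box GGGCGG. Of these, the *Ptgs2* window held a GC box at bases -170 to -165, a C/EBP element at -69 to -62, a CRE core at +13 to +18 and an E-box at +17 to +22, counted from +1 at the RefSeq start, the CRE core and the E-box sharing 2 bases. The *Ptgs1* window held none. Windows were at hand for 9 of the 10 members, all except *Ptgis*. Among these 9, *Ptgs2* was the only gene with the E-box, a motif present in 7.15% of all 32851 promoter windows, with the CRE core (7.51%) or with the C/EBP element (0.183%). No member window held the AP-1 element, present in 5.20% of windows. The GC box, present in 35.7%, occurred in the windows of 6 members. The TATA element (13.6%) occurred in those of *Hpgd* and, in the more distant of its 2 windows, *Pla2g4a*. A match is a description of the letters and does not show binding.

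The 3′ end of the *Ptgs2* mRNA was also read, since copies of the pentamer ATTTA in the 3′ UTR occur in many short-lived mRNAs. In the GENCODE M21 transcript with the longest coding sequence, the 2445-base 3′ UTR of *Ptgs2* held 14 copies, a number that 2.50% of 20633 protein-coding genes reach. Its densest 30 bases, from base 12 to base 41 of the 3′ UTR, hold 4 copies, shown in capitals.
Ptgs2 3′ UTR: ccatATTTATTTATTTAtgtgaagaATTTA
The 3′ UTRs of *Ptgs1* (921 bases) and *Ptges* (3106 bases) held 0 copies. Those of *Ptger2*, *Ptger4*, *Hpgd* and *Pla2g4a* held 6, 5, 4 and 4, and those of *Alox5* and *Alox12* held 2 each. Per kb of 3′ UTR, *Pla2g4a* (443 bases) was the densest member at 9.03 copies, followed by *Ptgs2* at 5.73. *Hpgd* had 4.77 per kb, *Ptger4* 4.06, *Ptger2* 3.29, *Alox5* 3.12 and *Alox12* 2.16. The median was 1.31 per kb over 19122 genes with at least 100 bases of 3′ UTR. The chosen *Ptgis* transcript has only 12 bases of 3′ UTR.

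The libraries held 50288454 to 61747564 counts in the control group and 53792998 to 82229553 in the senescent group. Levels are given as CPM (the reads of a gene relative to the counted reads of its library, with library totals scaled by TMM factors of 0.968 to 1.03). Levels of different genes are compared as CPM per kb of gene length. Ratios of reads within a library and summed levels of marker lists are exceptions, and these are not corrected for length. Senescent replicate 3 stood somewhat farther from its group mates (mean absolute log2 distance over genes of 0.298) than the other libraries did (0.193 to 0.226). In this comparison 36.2% of all tested genes were higher and 34.1% were lower in senescent MAFs at an adjusted p below 0.05 (edgeR quasi-likelihood test, Benjamini-Hochberg adjustment over all tested genes), so a call by itself is common, and the sizes of the changes say more.

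Of the 10 members, 9 were higher and 1, the prostacyclin synthase gene *Ptgis*, was lower in senescent MAFs. The values of the 3 control and the 3 senescent libraries did not overlap for any of the 10, as was true of 75.3% of all tested genes. The median log2 fold change was 1.56 for the members and 0.0085 for all tested genes. By the study's rule of an unadjusted p below 0.05 and a change of more than 2-fold, *Ptgs2*, *Alox5*, *Alox12*, *Hpgd*, *Ptger2* and *Ptger4* were higher, which makes 6 of 10 where 17.8% of all tested genes were higher by that rule. *Ptgis* was lower by it, and *Pla2g4a*, *Ptgs1* and *Ptges* changed by less than 2-fold. By the stricter cutoff that the study applies to its gene list, an unadjusted p below 1e-05 with the same fold, *Ptgs2*, *Alox5*, *Hpgd* and *Ptger4* remained higher, 4 of 10 where 8.27% of all tested genes were higher. *Alox12*, *Ptger2* and *Ptgis* did not pass that cutoff, which left 0 members lower. The share of all tested genes lower by these rules is not given here, so the counts of members lower cannot be set against it.

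**Figure D1:**
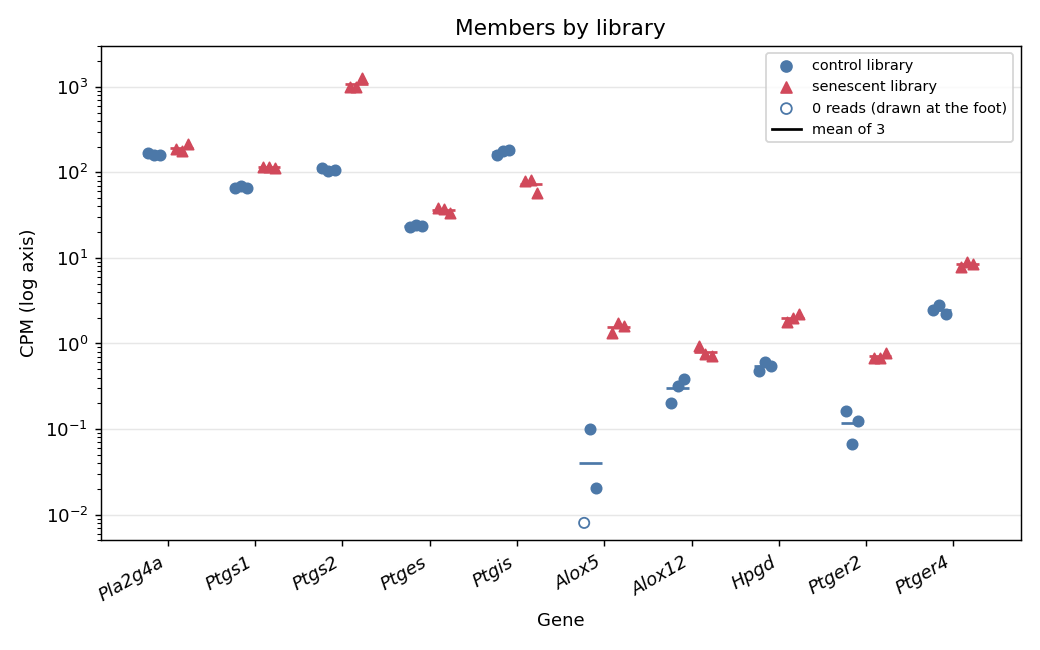
CPM (log axis) of the 10 members in each library, with control libraries as circles, senescent libraries as triangles, bars at the mean of 3 and the library with 0 reads drawn open at the foot. *Ptgs2* moves from 107.0 to 1078 CPM, *Ptgis* is the only gene whose triangles lie below its circles, and the genes from *Alox5* on lie below 10 CPM in every library.

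*Pla2g4a* encodes cytosolic phospholipase A2α, the enzyme that releases arachidonic acid in response to calcium and phosphorylation. Its level was 167.5, 157.9 and 158.9 CPM in the control libraries and 189.7, 177.7 and 216.9 CPM in the senescent libraries. All senescent values were above all control values, but the gap between the groups was small beside the spread in the senescent group. The rise was 1.21-fold (95% CI, 1.06 to 1.37, log2 fold change 0.27, SE 0.080, edgeR adjusted p = 0.0168), the smallest among the members. It passed no longer without control replicate 2 (log2 fold change 0.25, edgeR adjusted p = 0.0623) or without control replicate 3 (0.25, edgeR adjusted p = 0.0612). *Pla2g4a* transcripts were thus already abundant in control MAFs, at 25.3 CPM per kb, and stood at 30.5 CPM per kb in senescent MAFs.

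The wider list of phospholipase A2 genes was mixed. Of 20 genes, 13 were tested, of which 6 were higher, 4 were lower and 3 did not pass the threshold, with a median log2 fold change of -0.10. *Pla2g5*, which encodes a secreted phospholipase, fell from 13.3 ± 0.935 to 3.19 ± 0.0366 CPM (SD, n = 3 each), a log2 fold change of -2.06. *Pla2g12a*, another secreted form, rose from 7.88 ± 0.330 to 15.1 ± 1.19 CPM. *Pla2g7*, the plasma platelet-activating factor acetylhydrolase, which degrades a lipid signal rather than releasing arachidonic acid, rose from 1.008 ± 0.274 to 3.41 ± 0.253 CPM.

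Both cyclooxygenase genes rose, to very different extents. *Ptgs2* (chr1:150100031-150108227), the inducible enzyme COX-2, was at 112.5, 103.3 and 105.3 CPM in control MAFs and at 991.9, 989.7 and 1251 CPM in senescent MAFs. Each senescent library was at least 8.80 times the highest control library, and senescent replicate 3 was the highest of all. The fitted change was 10.1-fold (95% CI, 8.47 to 11.98, log2 fold change 3.33, SE 0.11, edgeR adjusted p = 1.21e-07). By CPM per kb, *Ptgs2* moved from rank 2575 to rank 137 of the 17589 tested genes. *Ptgs1* (chr2:36230426-36252272), the enzyme COX-1 that most tissues make constitutively, was at 65.7, 69.2 and 66.2 CPM in control MAFs and at 115.9, 114.3 and 113.4 CPM in senescent MAFs. Its libraries agreed closely within each group, and the rise was 1.71-fold (95% CI, 1.57 to 1.86, edgeR adjusted p = 5.76e-06).

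The balance between the paralogs can be read within each library, where it does not depend on scaling between libraries. There were 1.71, 1.49 and 1.59 *Ptgs2* reads per *Ptgs1* read in the control libraries and 8.56, 8.66 and 11.03 in the senescent libraries. On the log2 scale this ratio rose from 0.67 ± 0.10 to 3.23 ± 0.21 (SD, n = 3 each), a difference of 2.55. An exact two-sided permutation test gave p = 0.1, the smallest that 3 against 3 libraries can give (adjusted p = 0.1 over 5 ratios). Per kb of gene length, *Ptgs2* made up 57.5% ± 1.69 of cyclooxygenase transcripts in control MAFs and 88.8% ± 1.38 in senescent MAFs. The summed level of both genes rose from 40.6 ± 0.749 to 264.8 ± 32.6 CPM per kb.

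The terminal synthases that follow moved in opposite directions. *Ptges* encodes microsomal PGE synthase-1, the inducible enzyme usually coupled to COX-2. It was at 22.7, 24.0 and 23.6 CPM in control and at 38.3, 37.5 and 33.2 CPM in senescent MAFs. The groups stood well apart, and the rise was 1.55-fold (95% CI, 1.37 to 1.75, log2 fold change 0.63, SE 0.076, edgeR adjusted p = 1.54e-04).

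*Ptgis* encodes prostacyclin synthase, which makes the vasodilator PGI2. With 160.7, 178.5 and 180.2 CPM in control MAFs it was, per kb, the most abundant member there, at 67.4 CPM per kb and rank 757. In senescent MAFs it was at 80.02, 81.1 and 56.8 CPM, with senescent replicate 3 the lowest. Its level was 2.38-fold lower (95% CI, 1.92 to 2.97, log2 fold change -1.25, SE 0.14, edgeR adjusted p = 8.52e-05). Within libraries, there were 0.141, 0.134 and 0.131 *Ptges* reads per *Ptgis* read in control MAFs and 0.478, 0.462 and 0.584 in senescent MAFs. *Ptgis* reads still outnumbered *Ptges* reads in every library, with a log2 difference of 1.90 between the groups (exact permutation p = 0.1, the smallest possible here).

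Of the 11 genes on the terminal synthase list, 10 were tested, of which 6 were higher and 2 were lower (median log2 fold change, 0.50). The largest change on this list was that of *Akr1c18*, an aldo-keto reductase known both as a PGF synthase and for inactivating progesterone. It had 1, 0 and 0 reads in control MAFs and 382, 438 and 671 reads in senescent MAFs, a ratio of summed reads, scaled for depth, of 1079 (95% exact interval, 193.4 to 42640, counting error only). *Akr1b8*, a relative, rose from 33.5 ± 0.937 to 82.9 ± 1.68 CPM (log2 fold change 1.31), and *Akr1b3*, an aldose reductase with PGF synthase activity, rose by 0.36 on the log2 scale. These genes belong to families of similar sequence, and how reads that map to more than one place were counted was not given in the sources used here. *Fam213b*, another PGF synthase gene, fell by 0.84 on the log2 scale. *Tbxas1*, thromboxane synthase, had 12, 3 and 6 control reads and 30, 38 and 53 senescent reads. The other PGE synthases *Ptges2* (log2 fold change 0.37, edgeR adjusted p = 0.0516) and *Ptges3* (0.20, edgeR adjusted p = 0.2045) did not pass the threshold. *Ptgds*, a PGD synthase gene, had 3 reads in each control library and 13, 15 and 19 in the senescent libraries. The summed level of all 11 genes was 172.7 ± 5.69 CPM per kb in control and 182.1 ± 1.38 CPM per kb in senescent MAFs. Within it, the share of *Ptgis* went from 39.0% ± 1.37 to 15.6% ± 3.00, that of *Akr1b8* from 12.9% ± 0.179 to 30.4% ± 0.809, and that of *Ptges* from 3.45% ± 0.0748 to 5.07% ± 0.412. *Ptges3* held 25.6% ± 1.84 in control and 27.8% ± 5.06 in senescent MAFs, and *Akr1b3* 9.765% ± 0.214 and 11.9% ± 0.768. The sum and the shares depend on which genes the list holds.

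**Figure D2:**
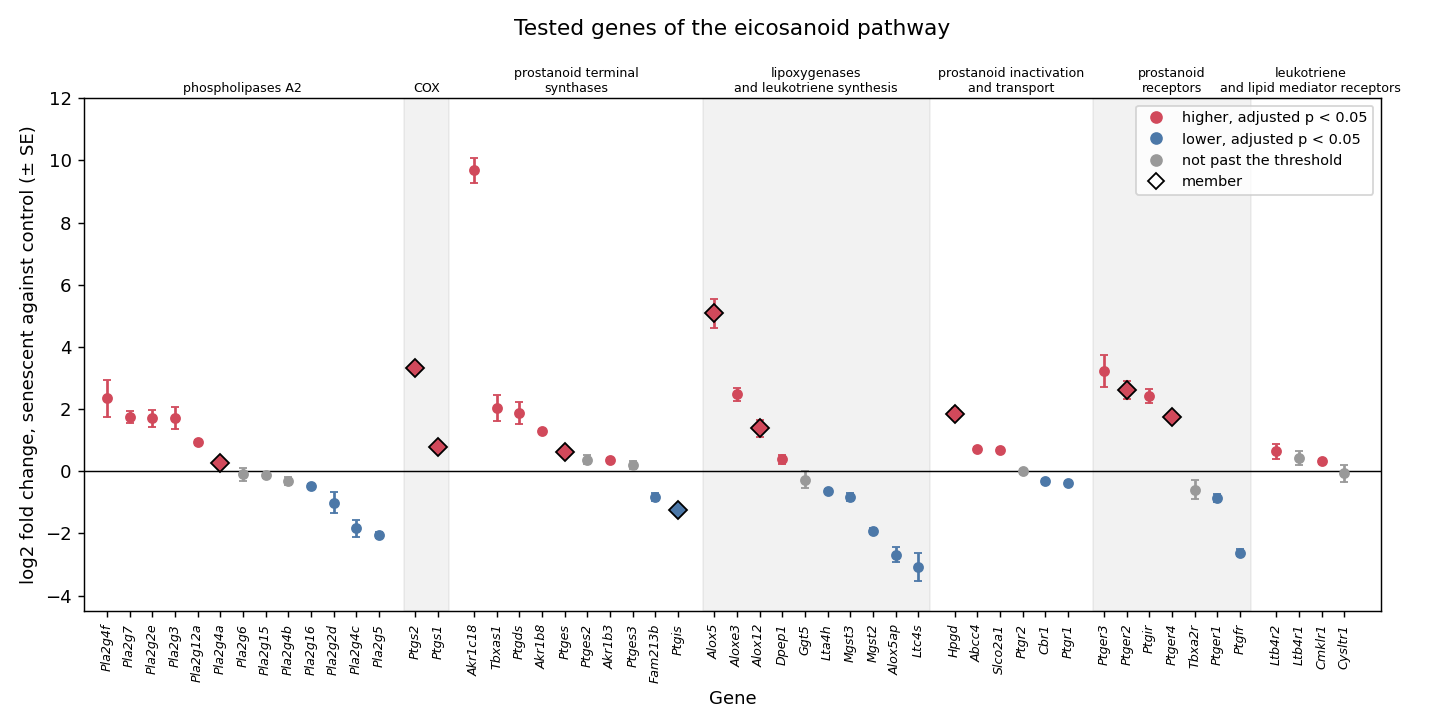
log2 fold change (± SE) of senescent against control MAFs for the 52 tested genes of 7 role lists (COX, cyclooxygenases), with members as outlined diamonds, red for higher, blue for lower and gray for not past the threshold. Members lie above 0 except *Ptgis* at -1.25, and every list except the cyclooxygenases has tested genes on both sides of 0.

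The lipoxygenase members were scarce. *Alox5* encodes 5-lipoxygenase, which starts leukotriene synthesis and is best known from myeloid cells. It had 0, 6 and 1 reads in the control libraries and 73, 137 and 136 reads in the senescent libraries. Control replicate 2 holds 6 of the 7 control reads, and the other control libraries lie under the 3 counts taken as the floor. The fitted change was 34.04-fold (95% CI, 16.04 to 72.2, log2 fold change 5.09, SE 0.47, edgeR adjusted p = 3.40e-05) with a senescent mean of 1.55 CPM. Without control replicate 2 the fitted value was 7.01 on the log2 scale, a figure that then depends on the prior count, and the ratio of summed reads, scaled for depth, was 156 (95% exact interval, 27.82 to 6180, counting error only). Even so, *Alox5* reached only 0.378 CPM per kb in senescent MAFs, at rank 14503.

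*Alox12*, the platelet-type 12-lipoxygenase, had 10, 19 and 19 reads in control MAFs and 52, 59 and 60 in senescent MAFs. This corresponds to 0.302 ± 0.0949 and 0.798 ± 0.123 CPM (SD, n = 3 each), a 2.60-fold rise (95% CI, 1.70 to 3.97, edgeR adjusted p = 0.00192). No more than 60 reads stand behind any of these values.

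The list of lipoxygenase and leukotriene synthesis genes was mixed. Of its 14 genes, 10 were tested, of which 4 were higher (*Alox5*, *Alox12*, *Aloxe3* and *Dpep1*) and 5 were lower, with a median log2 fold change of -0.45. *Mgst2*, which can conjugate leukotriene A4 with glutathione, fell from 24.5 ± 1.62 to 6.45 ± 0.509 CPM (log2 fold change -1.93). *Lta4h*, the hydrolase that makes leukotriene B4, fell from 114.9 ± 4.56 to 73.7 ± 1.72 CPM. *Aloxe3*, an epidermal lipoxygenase, rose from 0.364 ± 0.0720 to 2.04 ± 0.269 CPM. The further genes of this list were singled out after their values were seen. *Dpep1*, a dipeptidase that cleaves leukotriene D4, rose from 4.52 ± 0.340 to 5.92 ± 0.979 CPM (log2 fold change 0.38, edgeR adjusted p = 0.0387), with overlapping groups, and the count of 4 became 3 when any 1 library other than senescent replicate 3 was left out. *Alox5ap*, the membrane protein FLAP that 5-lipoxygenase needs in cells, had 76, 112 and 96 control reads and 18, 27 and 15 senescent reads (log2 fold change -2.69, edgeR adjusted p = 3.36e-05). *Ltc4s*, leukotriene C4 synthase, had 32, 60 and 40 control reads and 4, 14 and 3 senescent reads (log2 fold change -3.08).

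*Hpgd* encodes 15-hydroxyprostaglandin dehydrogenase, the enzyme that inactivates PGE2 inside cells. It had 24, 36 and 27 reads in control and 98, 156 and 186 reads in senescent MAFs. The lowest senescent library was well above the highest control library, and the rise was 3.62-fold (95% CI, 2.78 to 4.72, log2 fold change 1.86, SE 0.16, edgeR adjusted p = 2.66e-05). Its level stayed low, at 0.317 CPM per kb in control and 1.15 CPM per kb in senescent MAFs. There were 233.8, 171.4 and 190.8 *Ptgs2* reads per *Hpgd* read in control MAFs and 561.0, 502.7 and 567.8 in senescent MAFs, a log2 difference of 1.48 (exact permutation p = 0.1, the smallest possible here). All 6 genes of the inactivation and transport list were tested, and 3 were higher and 2 were lower. The transporters *Slco2a1*, which carries prostaglandins into cells (88.3 ± 0.352 to 142.5 ± 7.36 CPM), and *Abcc4*, which exports PGE2 (18.2 ± 0.275 to 30.1 ± 0.527 CPM), rose together with *Hpgd*. *Ptgr1*, a prostaglandin reductase, fell by 0.38 on the log2 scale.

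Both PGE2 receptor members rose. These receptors, EP2 (*Ptger2*) and EP4 (*Ptger4*), act through Gs and raise cyclic AMP. *Ptger4* had 123, 166 and 109 reads in control and 431, 713 and 707 reads in senescent MAFs. Its level rose from 2.49 ± 0.276 to 8.38 ± 0.611 CPM (SD, n = 3 each), a 3.36-fold change (95% CI, 2.79 to 4.04, log2 fold change 1.75, SE 0.11, edgeR adjusted p = 5.12e-06). The gene overlaps *Ttc33*, which changed little (26.3 to 30.6 CPM, log2 fold change 0.22, edgeR adjusted p = 0.0986).

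*Ptger2* had 8, 4 and 6 reads in control and 37, 53 and 66 reads in senescent MAFs, a 6.13-fold rise (95% CI, 3.80 to 9.90, edgeR adjusted p = 1.15e-04). It lies wholly inside *Gm17173*, an antisense gene that had 6, 4 and 3 control reads and 55, 112 and 113 senescent reads. *Gm17173* rose by more (log2 fold change 3.91, SE 0.30, against 2.62, SE 0.30, for *Ptger2*). Whether counting used the strand was not given in the sources used here, and without strand the reads of the 2 genes cannot be told apart. The within-library log2 ratio of *Ptger2* to *Ptger4* was 0.82 higher in senescent MAFs (exact permutation p = 0.1) and fell to 0.41 without control replicate 2. With 5 rather than 0.5 counts added to each gene, it was 0.20 (exact permutation p = 0.9), so no shift between the receptors can be read from so few *Ptger2* reads. The log2 ratio of *Alox5* to *Ptgs2* depended on this offset in the same way, at 2.26 (exact permutation p = 0.1) with 0.5 counts and 0.30 (exact permutation p = 0.4) with 5 counts. It lay between 1.39 without control replicate 1 and 3.17 without control replicate 2.

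**Figure D3:**
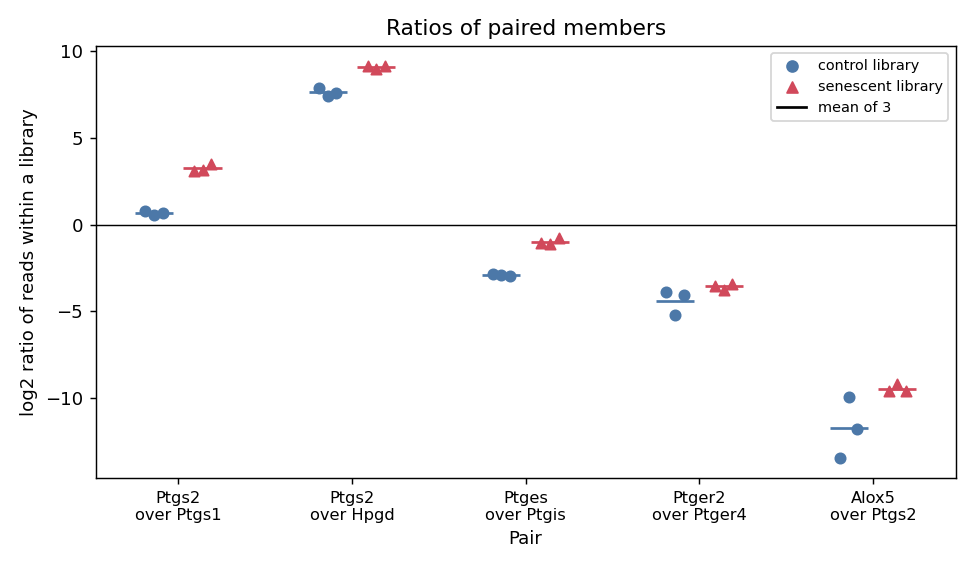
log2 ratio of reads (counts plus 0.5) of paired members within each library, with circles for control libraries, triangles for senescent libraries and bars at the mean of 3. All 5 ratios were higher in senescent libraries, by 1.90 for *Ptges* over *Ptgis* and by 2.55 for *Ptgs2* over *Ptgs1*, and the control libraries of *Ptger2* over *Ptger4* and *Alox5* over *Ptgs2* scatter more widely than those of the other pairs.

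The prostanoid receptor list as a whole held 9 genes, of which 7 were tested, 4 were higher and 2 were lower (median log2 fold change, 1.75). *Ptgfr*, the PGF2α receptor FP, fell from 19.7 ± 0.472 to 3.20 ± 0.389 CPM, a log2 fold change of -2.62. *Ptger1*, the calcium-coupled receptor EP1, fell from 4.72 ± 0.250 to 2.61 ± 0.367 CPM. *Ptgir*, the prostacyclin receptor IP, rose from 0.186 ± 0.0459 to 1.02 ± 0.0802 CPM, opposite in direction to the synthase gene *Ptgis*. *Ptger3*, the Gi-coupled receptor EP3, had 2, 5 and 1 control reads and 33, 47 and 25 senescent reads. *Tbxa2r*, the thromboxane receptor, did not pass the threshold (log2 fold change -0.59, edgeR adjusted p = 0.1248). With a minimum of 10 counts in every library, *Ptger4* was the only receptor gene left among those that rose. The summed level of the 9 genes was 6.34 ± 0.161 CPM per kb in control and 3.50 ± 0.117 CPM per kb in senescent MAFs. The share of *Ptgfr* in this sum went from 71.3% ± 0.108 to 20.99% ± 3.02, and that of *Ptger4* from 5.91% ± 0.593 to 36.0% ± 1.52, so *Ptger4* had the largest share in all 3 senescent libraries and *Ptgfr* in all 3 control libraries. *Ptger2* went from 0.499% ± 0.196 to 5.48% ± 0.586, and *Ptger1* held 15.0% in both groups.

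**Figure D4:**
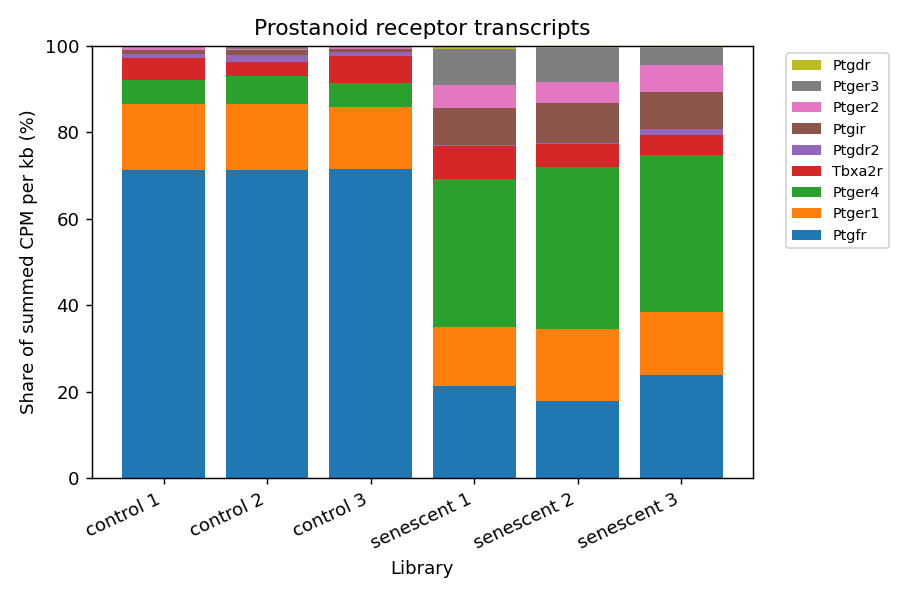
Share (%) of each prostanoid receptor gene in the summed CPM per kb of the 9 receptor genes, 1 bar per library. *Ptgfr* takes 71.3% on average in control libraries and 20.99% in senescent libraries, where *Ptger4* takes 36.0%, of a sum that went from 6.34 to 3.50 CPM per kb.

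Of 8 genes for leukotriene and related lipid receptors, 4 were tested and 2 were higher. These were *Ltb4r2*, a low-affinity leukotriene B4 receptor (log2 fold change 0.64, edgeR adjusted p = 0.0374), and *Cmklr1*, the chemerin receptor (0.32, edgeR adjusted p = 0.0114). The count of 2 became 1 without control replicate 1 or senescent replicate 1 and 3 without control replicate 3. Over all 7 lists, 70 genes in total, 52 were tested, 27 were higher and 15 were lower. Without the members the figures were 42 tested, 18 higher and 14 lower, with a median log2 fold change of 0.10. Over all tested genes, 36.2% were higher and 34.1% were lower, with a median of 0.0085. Whether the lists differ from these shares was not tested.

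On chromosome 1, *Pla2g4a* is the nearest tested protein-coding gene upstream of *Ptgs2*, 138.7 kb away, and the 2 members differed widely (1.21-fold against 10.1-fold). The other tested genes within 300 kb were looked up after the member values were known. *Ptgs2os* is a noncoding gene whose annotated span lies upstream of *Ptgs2*, with a gap of 67 bases between them. It had 177, 188 and 201 control reads and 509, 753 and 954 senescent reads (log2 fold change 1.48, SE 0.13, edgeR adjusted p = 2.85e-05). *Ptgs2os2*, on the other side, had 173, 180 and 170 control reads and 394, 503 and 670 senescent reads (log2 fold change 1.11, SE 0.12, edgeR adjusted p = 8.15e-05). Both rose by less than *Ptgs2*. Farther out, *Gm15453* was lower (-0.87), *BC003331* was slightly higher (0.43) and *Tpr* did not pass the threshold (0.09, edgeR adjusted p = 0.3179).

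**Figure D5:**
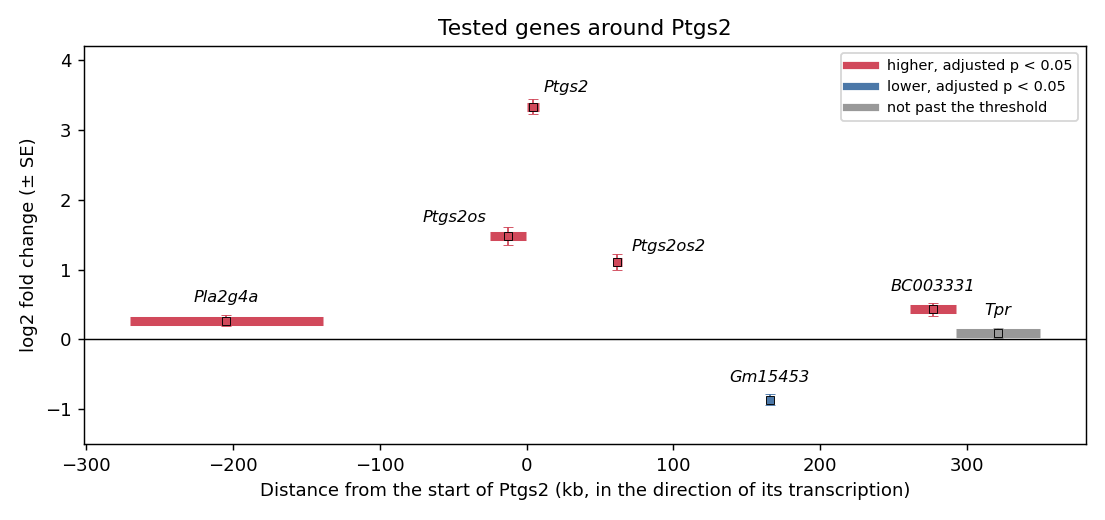
log2 fold change (± SE) of the 7 tested genes within 300 kb of *Ptgs2*, itself included, against distance in kb from its start, with each bar spanning its gene. *Ptgs2* stands at 3.33, its noncoding neighbors *Ptgs2os* and *Ptgs2os2* at 1.48 and 1.11, and *Pla2g4a* at 0.27.

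Per kb of gene length, the order of the members changed between the groups. In control MAFs it ran from *Ptgis* (67.4 CPM per kb) through *Pla2g4a* (25.3), *Ptgs2* (23.4), *Ptgs1* (17.3) and *Ptges* (5.96) to *Ptger4* (0.375), *Hpgd* (0.317), *Alox12* (0.0740), *Ptger2* (0.0317) and *Alox5* (0.00981). In senescent MAFs *Ptgs2* came first at 235.3 CPM per kb, followed by *Pla2g4a* (30.5), *Ptgs1* (29.5) and *Ptgis* (28.3), 3 neighbors that lay close together beside SDs of 3.14, 0.329 and 5.35 CPM per kb. Among the members, the genes of prostaglandin synthesis lay above the receptor genes and *Hpgd* in both groups.

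Among 12957 tested genes that averaged 100 counts or more, the profiles most like that of *Ptgs2* over the 6 libraries (Pearson's r of log2 CPM) were those of *Eaf1* (0.99998), *Gm12603* (0.99996) and *Pdpn* (0.99996). For *Ptgs1* they were *Dok5* (0.99991), *Sprr3* (0.99986) and *Rgmb* (0.9997). With 2 groups of 3 such likeness is common, and 1263 genes for *Ptgs2* and 947 for *Ptgs1* had an r above 0.99.

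Markers of other cell types were read because 5-lipoxygenase, 12-lipoxygenase and prostanoid receptors are also made by blood and vessel cells. All 6 tested macrophage genes were higher in senescent MAFs, with a summed level of 6.08 to 6.85 CPM in control and 14.5 to 17.2 CPM in senescent libraries. *Cd68* was the most abundant of them and rose 1.30-fold, and *Fcgr1* had at most 3 reads in any library. The further macrophage genes were singled out after their values were seen. *Lyz2* had 11, 7 and 21 control reads and 276, 310 and 393 senescent reads. *Itgam* had 0, 0 and 1 control reads and 38, 29 and 39 senescent reads. *Ptprc* rose 7.74-fold, *Mrc1* 2.08-fold and *Csf1r* 1.95-fold. The 5 tested endothelial genes were also all higher (2.53 to 2.93 against 8.15 to 8.59 CPM). Of the mast cell genes none was tested (summed level, 0 to 0.0204 CPM in control and 0.235 to 0.391 CPM in senescent libraries). *Kit*, which had the highest CPM of them in senescent MAFs, had 1, 0 and 0 control reads and 8, 21 and 19 senescent reads. Per kb, *Cma1* was higher there (0.0498 against 0.0363 CPM per kb for *Kit*), with 0, 0 and 1 control reads and 4, 7 and 0 senescent reads. *Fcer1a* and *Mcpt4* were at 0 in every library. Among neutrophil genes (0 to 0.0335 against 1.327 to 1.425 CPM) *S100a8* alone was tested and higher, while *Ly6g*, *S100a9* and *Mpo* had at most 3 reads in any library. The summed level of the platelet genes fell (28.6 to 31.0 against 16.9 to 20.98 CPM), with 2 of 3 tested genes lower and *Pf4* at 3 reads or fewer. The other tested platelet gene, *Ppbp*, singled out after its values were seen, did not pass the threshold (log2 fold change 0.16, edgeR adjusted p = 0.2415). Of 4 tested keratinocyte genes 1 was higher and 1 was lower (15.9 to 16.6 against 21.3 to 22.3 CPM). The higher gene was *Ivl*, at 0 in every control library and at 13.97 ± 0.560 CPM in senescent MAFs, and the lower was *Trp63*, which went from 13.15 ± 0.346 to 4.17 ± 0.521 CPM. The fibroblast genes had the highest summed level of these lists in both groups, with *Vim* the highest per kb in both, and 6 of 10 were lower and 3 were higher (19180 to 21250 against 7384 to 8685 CPM). The chondrocyte genes, led by *Col2a1*, were at 4802 to 5365 CPM in control and 318.3 to 393.6 CPM in senescent libraries, with all 5 tested genes lower. The part of these shifts in the member values was not tested, and in bulk RNA fewer cells of a type and less RNA per cell cannot be told apart.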

How the data were processed

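Gene expression was measured by RNA-seq in 3 control and 3 senescent MAF libraries, grouped by their GEO labels. Stranded mRNA libraries made from 200 ng of RNA were sequenced as paired ends of 100 bases. The deposited values are raw read counts per gene, which the authors obtained with the MAPRSeq pipeline, in which STAR aligned the reads (build mm10) and Subread counted them (named without a version in the submitters' processing notes). The strand setting and the handling of multiply mapped reads were not given in the sources used here.

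Counts were tested with edgeR v4.0.16 in R v4.3.3 (TMM scaling, filterByExpr, robust quasi-likelihood fit, group as the only term, two-sided) with Benjamini-Hochberg adjustment over all 17589 tested genes, and an adjusted p below 0.05 was called. The common biological coefficient of variation was 0.1. The script was tested on simulated data. A library with 3 counts or fewer of a gene was taken as at the floor. Ratios within a library used counts plus 0.5 and exact permutation tests over 5 pairs.

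The members and lists were chosen with earlier results of these data known. Text names all members, up to 3 other genes per list with the smallest p and a mean of at least 10 counts, any tested terminal synthase or prostanoid receptor, the leading and absent marker genes, and the 3 genes most like each cyclooxygenase gene. Alternatives were RLE scaling, library size alone, other filters, the edgeR exact test, DESeq2 v1.42.0, a replicate block, another offset and leaving out each library. Promoters came from RefSeq and 3′ UTRs from GENCODE M21. Sums over lists count untested genes as well.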

Additional observations from a re-analysis of the deposited data

How the results depend on the processing

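Each member kept its direction under all alternatives, and all but *Pla2g4a* kept their side of the threshold wherever they were tested with the same call rule. A minimum of 10 counts in every library left out *Alox5* and *Ptger2*. Leaving out 1 library moved the log2 fold change of *Pla2g4a* between 0.19 and 0.34 and took 8 rather than 9 members past the threshold without control replicate 2 or control replicate 3. By the study's stricter cutoff (read as an unadjusted p below 1e-05, more than 2-fold), added after seeing the data, 4 members were higher and 0 lower. Deviations of libraries with the same replicate number correlated at -0.145, 0.135 and -0.12, so no pairing by number was seen, though groups of 3 cannot exclude it. With a replicate block, 5964 genes were higher and 5660 were lower (6360 and 6005 without it), and no member call changed. Over all genes, no filter beyond 1 count in total gave 7705 higher and 6034 lower among 29776, and DESeq2 gave 6415 and 5796. Library size alone shifted the median log2 fold change by 0.0777. An offset of 5 counts moved the log2 ratio of *Ptger2* over *Ptger4* from 0.82 to 0.20 and that of *Alox5* over *Ptgs2* from 2.26 to 0.30. The count of 2 genes that rose on the list of leukotriene and related lipid receptors was 1 with DESeq2 and with the block, and the prostanoid receptor count of 4 was 1 with a minimum of 10 counts in every library. Depth limits *Alox5*, *Alox12*, *Hpgd* and *Ptger2*, which had at most 36 reads in any control library.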
